A study of Mus musculus with 5 samples.

Results

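The genes studied here encode the enzymes and carriers that take glucose into the cell, break it down to pyruvate, interconvert pyruvate and lactate and move lactate across the membrane, together with the enzymes of the pentose phosphate pathway. They were chosen as 32 listed mouse genes, and every probe set whose only gene symbol in the platform annotation was one of them was taken. This gave 63 probe sets for 29 of the 32 genes, out of 18194 genes measured in all. Gpi1 (phosphoglucose isomerase), Eno1 (the widespread enolase) and G6pdx (the entry enzyme of the pentose phosphate pathway) had no probe set carrying their symbol alone and were not analysed here. Gapdh was measured by 3 control probe sets of the array, along the length of its transcript.

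RNA came from splenic CD4 T cells of BALB/c mice and was hybridised to Affymetrix arrays, at 1 array per group. The 5 groups comprised effector Th1 cells labelled TOFA, effector Th1 cells labelled Rap, memory Th1 cells, control effector Th1 cells and naive CD4 T cells. Effector cells had been cultured for 5 days with 15 ng/ml IL-2, a T cell growth factor, and 10 ng/ml IL-12, the cytokine that directs CD4 T cells to the interferon-gamma producing Th1 fate. TOFA inhibits acetyl-CoA carboxylase, the enzyme that makes malonyl-CoA for fatty acid synthesis and that the study's title names as Acc1. The labels do not expand Rap, and any doses, how memory cells were obtained, the number of mice and any pooling were not stated in the sources. The culture protocol is attached to all 5 samples, although only the effector samples are described as cultured.

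Glycolysis turns glucose into pyruvate in a chain of cytosolic reactions. It is committed by hexokinase and phosphofructokinase and ends with pyruvate kinase, and lactate dehydrogenase then regenerates the NAD+ that the chain consumes. The pentose phosphate pathway branches off at glucose phosphate and supplies NADPH for biosynthesis, including fatty acid synthesis, and ribose for nucleotides. Activated T cells are known for taking up large amounts of glucose and releasing lactate even when oxygen is present, whereas resting T cells rely more on mitochondrial oxidation.

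A single array per group allowed no statistical test, and all statements of higher and lower describe these arrays. A gene was called higher or lower from a 2-fold difference, that is 1 on the log2 scale. Signals were quantile normalized, and a signal under 43.4, the 40th percentile of all signals, was treated as not above the floor. A fold against such a signal is a lower bound, calculated against 43.4. Each gene is represented by its brightest probe set. The only internal measure of error was the SD of log2 differences between probe sets of the same gene, which was 0.64 for control effector over naive, 0.54 for memory over naive, 0.66 for memory over control effector, 0.37 for TOFA and 0.38 for Rap over control effector, and 0.34 for TOFA over Rap. Any deviation of an array or culture that affects every probe set of a gene alike is not covered by it. In all, 28 of the 29 measured genes were above the floor on every array, the exception being Eno2, which was above it on 3.

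The arrays differed in the signals of markers of other cell types. T cell markers summed over 7 genes to a signal of 44545 in memory cells, 40513 to 46733 across the effector arrays and 64959 in naive cells, and all 7 were above the floor on every array. Macrophage and monocyte markers summed to 113345 in memory cells, with 10 of 10 measured genes above the floor, to 258 to 492 across the effector arrays, with 2 to 4 above it, and to 3311 in naive cells, with 5 above it. B cell markers summed to 49076 in memory cells, 1845 to 2601 across the effector arrays and 32379 in naive cells. Dendritic cell markers summed to 35625, 872 to 2029 and 6920 in the same order, neutrophil markers to 12622, 368 to 702 and 5819, and platelet markers to 7247, 299 to 332 and 319. CD8 T cell markers summed to 1072, 317 to 400 and 703, erythroid markers to 858, 61.3 to 85.8 and 108, and NK cell markers to 298, 642 to 1964 and 331. In memory cells H2-Aa (23624) and H2-Ab1 (10952) made most of the dendritic cell sum. Itgax stood at 843, Xcr1 and Siglech at 76.1 and 92.2, and Flt3 was under the floor. Of 8 neutrophil genes, 6 lay above 0 on the log2 scale in memory over naive cells and 2, Mpo and Elane, below 0. At least 2-fold higher were 2 of the 8, against 12.3% of all genes, and 1 was at least 2-fold lower, against 4.13%. Cxcr2 was highest in control effector cells. On the effector arrays the NK cell sum was nearly all Eomes (616 to 1948), with Ncr1 and Klra8 under the floor. Markers of naive T cells summed to 17857 in memory cells, 8320 to 12951 across the effector arrays and 40471 in naive cells, whereas activated Th1 markers summed to 6123, 28318 to 43630 and 1258. Cxcr3 (4799) made most of the activated Th1 sum in memory cells. Of 5 activated Th1 genes compared between memory and naive cells, 3 were at least 2-fold higher, against 12.3% of all genes. The other 2, Gzmb (223 against 266) and Il2ra (239 against 425), lay below 0. Macrophage markers were thus strongest on the memory array, where the complement genes C1qa and C1qc stood at 16550 and 11581. The B cell sum was above that of the effector arrays on both the memory and the naive array. Ighm made most of it, with 28142 in memory and 27391 in naive cells. Of the 7 B cell markers, 6 were at least 2-fold higher in memory than in naive cells, against 12.3% of all genes. The part of these cells in any difference that involves the memory or naive array was not tested, and fewer cells of a type cannot be told apart from less RNA per cell. RNA quality was gauged by Gapdh, whose 3' over 5' probe set ratio was 0.832 to 0.918 across arrays.

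**Figure D1:**
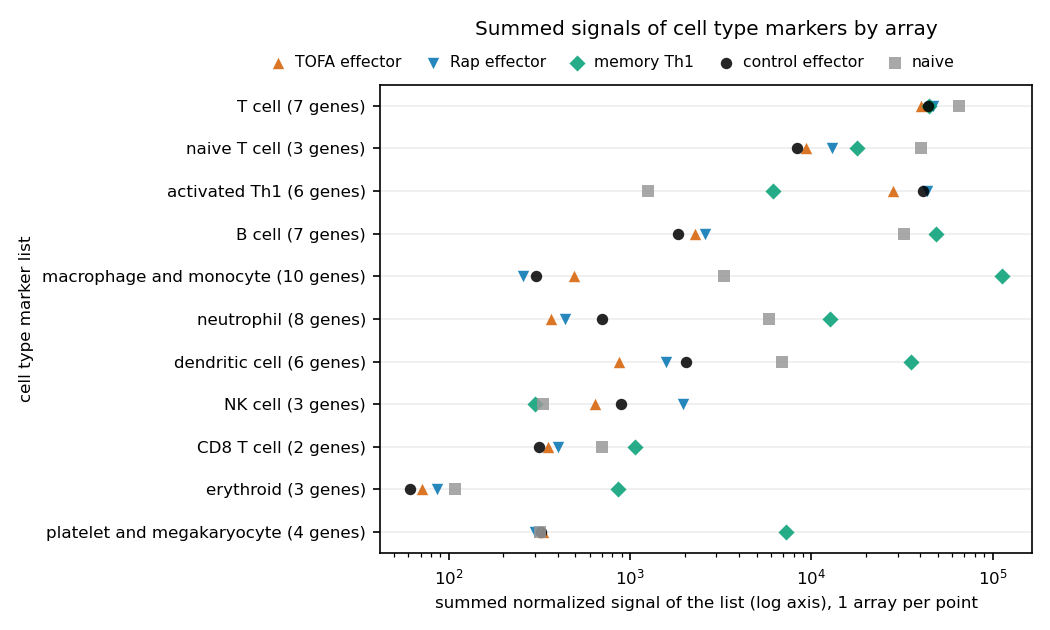
Summed normalized signal of each cell type marker list (log axis), 1 point per array, with no error bars since each group has 1 array. The memory array stands at 113345 for macrophage and monocyte markers, against 258 to 492 across the effector arrays and 3311 in naive cells.

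Control effector cells were set against naive cells to describe the module after Th1 culture. Nearly the whole glycolytic chain was higher in control effector cells, from glucose carriers to lactate carriers, and the largest differences were those of Aldoc, Hk2, Eno2 and Tpi1. Of the 29 measured genes 21 were at least 2-fold higher, against 15.9% of the 13063 genes compared, and 1 was at least 2-fold lower, against 11.4%. The median log2 difference was 1.75 over the measured genes and 0.03 over all genes. Differences beyond the probe set SD of 0.64 were seen for 24 genes upward and 1 downward, which is 86.2% of the measured genes against 44.8% of all genes. By branch, 16 of 19 measured genes of glucose uptake and glycolysis passed 2-fold upward (median 2.47), as did 3 of 4 lactate genes (median 1.73) and 2 of 6 pentose phosphate genes (median 0.89).

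Among the glucose carriers, Slc2a1 encodes GLUT1, the carrier known for glucose uptake in activated T cells. Its signal was 10607 in TOFA effector, 8313 in Rap effector, 1562 in memory, 11896 in control effector and 1984 in naive cells. Slc2a3, which encodes the high-affinity carrier GLUT3, had signals of 15260 in TOFA effector, 10982 in Rap effector, 4722 in memory, 22831 in control effector and 3027 in naive cells. All 3 effector arrays lay above both other arrays for each carrier, and control effector over naive cells gave 6.0-fold for Slc2a1 and 7.54-fold for Slc2a3.

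The hexokinases, which trap glucose as glucose phosphate, differed from each other most. Hk2, the inducible hexokinase, stood at 5583 in TOFA effector, 5959 in Rap effector, 416 in memory, 5834 in control effector and 99 in naive cells. Control effector cells therefore had 58.9-fold the Hk2 signal of naive cells, and memory cells lay between them. Hk3, a hexokinase found mainly in myeloid cells, ran the other way, with 56.4 in TOFA effector, 90.1 in Rap effector, 1040 in memory, 54.5 in control effector and 116 in naive cells. Its control effector signal was 2.13-fold lower than in naive cells, and its other probe set was at the floor in both. Hk1, the housekeeping hexokinase, had 2.94-fold the naive signal in control effector cells. The fold of Hk2 was 20.1 times that of Hk1.

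Phosphofructokinase catalyses the committed step of glycolysis, and all 3 of its genes passed 2-fold upward in control effector over naive cells. Pfkl, the liver type, had signals of 938 in TOFA effector, 991 in Rap effector, 160 in memory, 1019 in control effector and 184 in naive cells. Pfkm, the muscle type, had 513 in TOFA effector, 455 in Rap effector, 265 in memory, 952 in control effector and 368 in naive cells. The folds were 5.54 for Pfkl, 5.41 for Pfkp (the platelet type) and 2.58 for Pfkm, and 1 of the 3 Pfkl probe sets gave only 0.17 on the log2 scale. Pfkfb3 and Pfkfb4 encode bifunctional enzymes that set the level of an allosteric activator of phosphofructokinase. Pfkfb3 stood at 992 in TOFA effector, 963 in Rap effector, 575 in memory, 1678 in control effector and 726 in naive cells, and Pfkfb4 at 262, 172, 416, 363 and 229 in the same order. The control effector signal was thus 2.31 times the naive signal for Pfkfb3 and 1.59 times for Pfkfb4, which is under the 2-fold line. The Pfkfb3 difference dropped to 0.91 on the log2 scale, also under the line, when its 2 probe sets were averaged.

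Aldolase, which splits the hexose into trioses, held the widest measured difference of the module. Aldoc, the form best known from brain, had signals of 4170 in TOFA effector, 2601 in Rap effector, 127 in memory, 9323 in control effector and 98.9 in naive cells. Aldoa, the widespread form, had 27090 in TOFA effector, 21982 in Rap effector, 8056 in memory, 30538 in control effector and 5824 in naive cells. Control effector over naive cells came to 94.3-fold for Aldoc and 5.24-fold for Aldoa. The second Aldoc probe set gave a log2 difference of at least 4.22 against 6.56 for the brighter one, because it was at the floor in naive cells. All 5 Aldoa probe sets belong to the kind that can match several transcripts, and 1 of them gave only 0.58.

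In the part of glycolysis from trioses to pyruvate, 6 of the 7 measured genes were past 2-fold upward in control effector cells, all but Eno3. Tpi1, which interconverts the trioses, stood at 25932 in TOFA effector, 24669 in Rap effector, 2115 in memory, 28615 in control effector and 920 in naive cells. The control effector signal was 31.1-fold the naive one, and the other 2 Tpi1 probe sets gave log2 differences of 5.06 and 4.67 beside 4.96. Gapdh, Pgk1 and Pgam1, which carry the triose to phosphoglycerate, were 5.05-, 6.83- and 6.09-fold higher, so the Tpi1 difference exceeded theirs by 2.19 to 2.62 on the log2 scale. Eno2, the enolase best known from neurons, had signals of 782 in TOFA effector, 715 in Rap effector, 35.5 in memory, 1666 in control effector and 40.6 in naive cells. Since Eno2 was at the floor in naive cells, its control effector signal was at least 38.4 times the naive one. Eno3, the muscle enolase, had 922 in TOFA effector, 1097 in Rap effector, 483 in memory, 1007 in control effector and 737 in naive cells, a difference of 1.37-fold. Pkm, pyruvate kinase, had 10233 in TOFA effector, 10538 in Rap effector, 1861 in memory, 12350 in control effector and 1682 in naive cells, so that control effector cells had 7.34 times the naive signal. Between them the 2 enolases differed in fold by at least 28.1 times.

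Lactate dehydrogenase showed a split between its subunits. Ldha, the subunit that favours lactate formation, had signals of 33772 in TOFA effector, 30479 in Rap effector, 10426 in memory, 35765 in control effector and 10888 in naive cells. Ldhb, the subunit that favours pyruvate formation, had 881 in TOFA effector, 773 in Rap effector, 258 in memory, 956 in control effector and 1057 in naive cells. Against naive cells, control effector cells were 3.28-fold higher for Ldha and 1.11-fold lower for Ldhb, with all 4 Ldhb probe sets below 0 (-0.58 to -0.14). The lactate carriers were both higher. Slc16a1, which encodes MCT1, had 6426 in TOFA effector, 3915 in Rap effector, 3203 in memory, 5711 in control effector and 1703 in naive cells. Slc16a3, which encodes MCT4, the carrier known for lactate export from glycolytic cells, had 185 in TOFA effector, 191 in Rap effector, 58.4 in memory, 229 in control effector and 54.6 in naive cells. These are differences of 3.35-fold for Slc16a1 and 4.2-fold for Slc16a3 between control effector and naive cells, and since Slc16a3 was close to the floor its log2 difference shrank to 0.61 with the floor at the 60th percentile. The second Slc16a1 probe set was at the floor on every array, and averaging both gave 0.87, under the 2-fold line.

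The pentose phosphate genes showed smaller differences. Pgls, which opens the lactone formed in the oxidative branch, stood at 2312 in TOFA effector, 2254 in Rap effector, 1180 in memory, 2336 in control effector and 923 in naive cells. Pgd, the second NADPH-producing enzyme of that branch, stood at 4682 in TOFA effector, 4277 in Rap effector, 4427 in memory, 4989 in control effector and 2641 in naive cells. In control effector over naive cells Pgls reached 2.53-fold and Pgd 1.89-fold. The other Pgd probe sets gave log2 differences of 0.80, 1.32 and 1.33. Pgd passed the 2-fold line with signals as deposited (1.03) and with the mean of all its probe sets (1.09). In the non-oxidative branch, which links pentoses to glycolytic sugars, Tkt (transketolase) had 30384 in TOFA effector, 25678 in Rap effector, 12589 in memory, 33259 in control effector and 14960 in naive cells. Taldo1 (transaldolase) had 4445 in TOFA effector, 3518 in Rap effector, 10691 in memory, 5399 in control effector and 4392 in naive cells. Tkt was 2.22-fold and Taldo1 1.23-fold higher in control effector cells, and Rpia and Rpe, which interconvert pentose phosphates, were 1.15- and 1.81-fold higher. The other Rpe probe sets disagreed, with log2 differences of 1.07 and, near the floor, -0.72. Another Tkt probe set near the floor gave 0.10, and the mean of all Tkt probe sets gave 0.96 on the log2 scale, just under the 2-fold line.

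**Figure D2:**
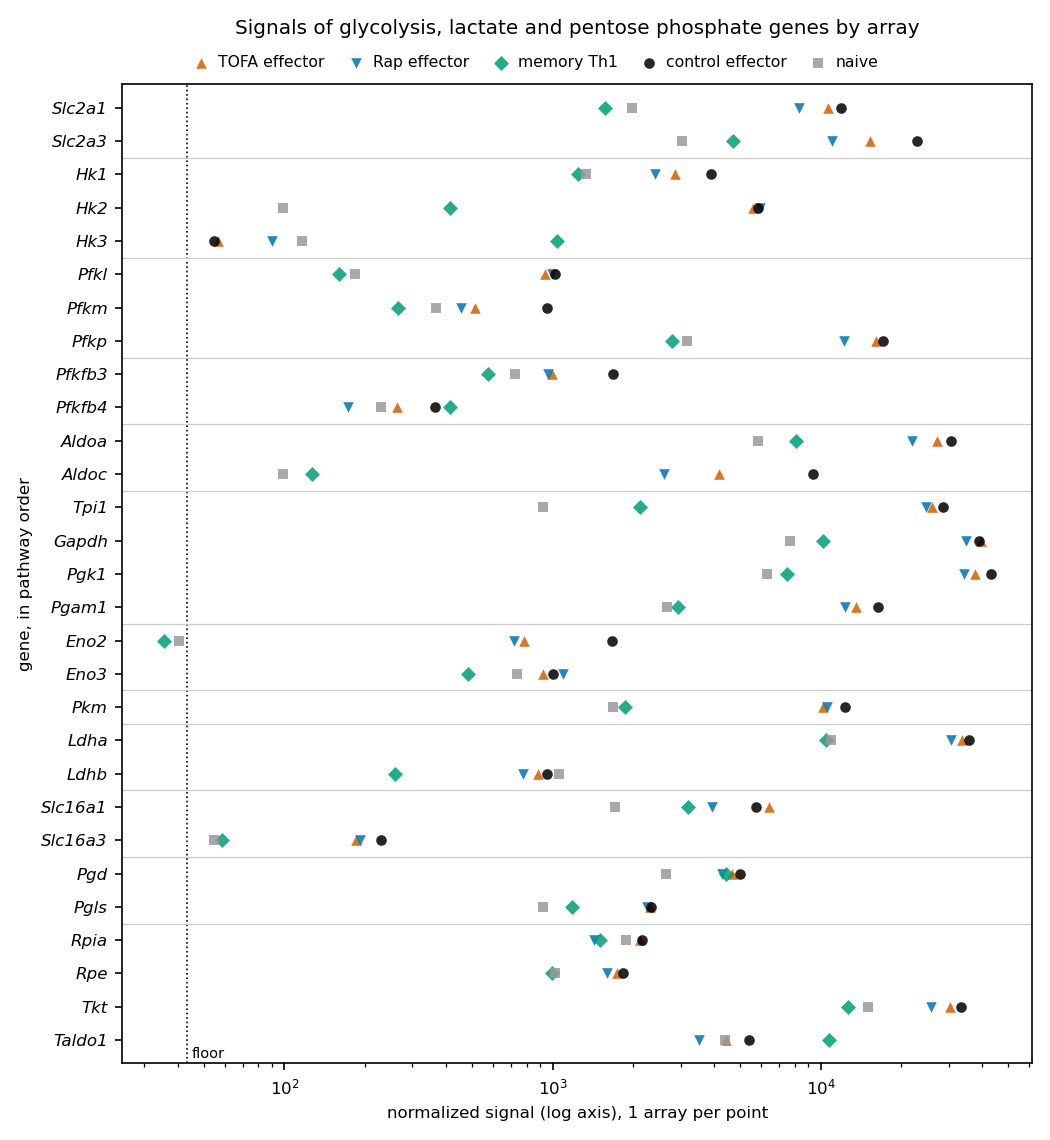
Normalized signal of each measured gene (log axis) in pathway order, 1 point per array and no error bars since each group has 1 array; the dotted line is the floor of 43.4. For most glycolytic genes the 3 effector points lie together to the right of the memory and naive points, while Hk3 and Taldo1 are highest on the memory array.

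The promoters of 5 of these genes are shown as RefSeq gives them for GRCm38.p6, because the genes span the responses seen here: Aldoc, Eno2 and Hk2 had large differences between control effector and naive cells, Ldha carries the most core motifs of the listed genes, and Aldoc, Eno2 and Pfkfb4 were lower in TOFA or Rap than in control effector cells. Each window runs from 250 bases before to 50 after the start of transcription. Capitals mark ACGTG or GCGTG on either strand, the core of the element bound by the hypoxia-inducible factor HIF, whose known targets include many glycolytic genes.
Aldoc, chr11:78322823-78323122, plus strand: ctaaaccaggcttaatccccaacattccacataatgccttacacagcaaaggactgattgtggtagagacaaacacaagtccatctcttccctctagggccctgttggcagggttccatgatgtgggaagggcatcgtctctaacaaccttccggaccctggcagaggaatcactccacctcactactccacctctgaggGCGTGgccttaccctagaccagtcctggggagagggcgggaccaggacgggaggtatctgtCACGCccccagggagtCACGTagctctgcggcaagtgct
Eno2, chr6:124769624-124769923, minus strand: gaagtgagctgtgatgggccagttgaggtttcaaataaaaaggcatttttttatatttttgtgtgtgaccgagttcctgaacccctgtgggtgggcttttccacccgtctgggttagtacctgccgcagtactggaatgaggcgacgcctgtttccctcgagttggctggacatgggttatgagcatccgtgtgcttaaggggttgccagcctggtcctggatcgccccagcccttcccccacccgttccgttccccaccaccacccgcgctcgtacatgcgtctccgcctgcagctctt
Hk2, chr6:82774405-82774704, minus strand: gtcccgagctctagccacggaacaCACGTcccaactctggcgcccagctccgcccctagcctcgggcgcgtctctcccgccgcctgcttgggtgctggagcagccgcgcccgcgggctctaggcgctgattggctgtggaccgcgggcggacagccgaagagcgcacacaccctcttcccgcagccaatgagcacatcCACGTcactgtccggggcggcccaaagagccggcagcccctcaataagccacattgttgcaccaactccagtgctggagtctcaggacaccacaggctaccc
Ldha, chr7:46845554-46845853, plus strand: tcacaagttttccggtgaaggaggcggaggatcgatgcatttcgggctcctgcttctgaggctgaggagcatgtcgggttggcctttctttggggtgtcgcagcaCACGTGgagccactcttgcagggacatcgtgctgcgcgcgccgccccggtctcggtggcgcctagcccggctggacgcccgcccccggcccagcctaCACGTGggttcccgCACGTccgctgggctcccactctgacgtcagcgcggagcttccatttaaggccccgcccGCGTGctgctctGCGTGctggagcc
Pfkfb4, chr9:108991652-108991951, plus strand: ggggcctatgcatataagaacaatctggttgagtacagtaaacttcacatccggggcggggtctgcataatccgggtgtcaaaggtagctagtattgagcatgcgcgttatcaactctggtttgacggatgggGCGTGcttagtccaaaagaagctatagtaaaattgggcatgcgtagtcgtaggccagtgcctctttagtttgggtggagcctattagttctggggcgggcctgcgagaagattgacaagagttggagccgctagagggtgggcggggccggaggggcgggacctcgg

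The Aldoc window shown held 3 such cores, at -50, 12 and 28 from the start site, and the Hk2 window held 2, at -226 and -52. The Ldha window shown held 5 separate stretches in capitals, of which 2 are the palindrome CACGTG, the E-box, which carries ACGTG on both strands. Aldoc and Ldha each have a second window at another start site, not shown, with fewer cores. It held 1 core at -39 for Aldoc and 2 cores at -59 and 41 for Ldha. The Pfkfb4 window held 1 core, at -117, and the Eno2 window none, which says only that these letters are not in that window. Sequences run on the strand of the gene and positions give the first base of a match: the shared bases of overlapping minus-strand windows matched in that direction in 1026 of 1026 pairs, and in 0 when read on the plus strand. Windows were found for 31 of the 32 listed genes. ACGTG or GCGTG occurred in 35 of the 44 windows of listed genes (79.5%), against 43.8% of all 32851 windows. ACGTG alone occurred in 43.2% against 19.6%, GCGTG in 59.1% against 32.4%, and CACGTG in 9.09% against 7.15%. The windows of the listed genes were also richer in G and C, with a median of 60.5% against 52.7%, and a motif match is a description of sequence, not of a bound site.

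TOFA effector cells, labelled with the name of an acetyl-CoA carboxylase inhibitor, were set against control effector cells to describe the module. Aldoc and Eno2 were lower, and the rest of the module stayed within 2-fold. None of the 29 measured genes was at least 2-fold higher, against 2.47% of 12851 genes compared, and 2 were at least 2-fold lower, against 2.14%. The median log2 difference was -0.14 over the measured genes and 0.01 over all genes, and 26 of the 29 genes were below 0. Only 7 genes lay beyond the probe set SD of 0.37, all of them lower in TOFA cells, which is 24.1% of the measured genes against 34.0% of all genes.

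Aldoc stood at 4170 in TOFA cells and 9323 in control effector cells, 2.24-fold lower, and its other probe set gave a log2 difference of -1.42 beside -1.16. Eno2, measured by 1 probe set, stood at 782 in TOFA cells and 1666 in control effector cells, 2.13-fold lower. Both signals were still above those of naive cells. The next largest differences were those of Pfkm (513 in TOFA cells against 952, 1.85-fold lower), Pfkfb3 (992 against 1678, 1.69-fold lower) and Slc2a3 (15260 against 22831, 1.5-fold lower). Each of them was beyond the probe set SD but under 2-fold. A dim Slc2a3 probe set gave -1.66, so that without _x_at and _s_at probe sets, which can match more than 1 transcript, Slc2a3 was past 2-fold. Hk2 (5583 against 5834), Gapdh (39465 against 38831) and Ldha (33772 against 35765) differed by 1.02- to 1.06-fold. The 6 pentose phosphate genes differed by -0.28 to -0.01 on the log2 scale, which is within the probe set SD, and Tkt (0.04) and Rpe (0.02) came out just above 0 with the mean of all probe sets.

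In Rap effector cells most of the module stood below control effector cells, by less than 2-fold for the larger part of it. At least 2-fold lower were 5 of the 29 measured genes, Aldoc, Eno2, Pfkfb4, Pfkm and Slc2a3, against 3.91% of 12840 genes compared, and 0 were at least 2-fold higher, against 1.79%. The median log2 difference was -0.37 over the measured genes and 0.00 over all genes, and again 26 of 29 genes were below 0. Beyond the probe set SD of 0.38 were 14 genes in the lower direction and 1, Hk3, in the higher, together 51.7% of the measured genes against 34.5% of all genes.

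Aldoc had a signal of 2601 in Rap cells and 9323 in control effector cells, 3.58-fold lower, with a log2 difference of -2.37 by its other probe set. Eno2 had 715 in Rap cells and 1666 in control effector cells, 2.33-fold lower. Both genes were still above their naive signals. Pfkfb4 had 172 in Rap cells and 363 in control effector cells, 2.12-fold lower and also under the naive signal of 229. Pfkm had 455 in Rap cells and 952 in control effector cells, 2.09-fold lower. Slc2a3 had 10982 in Rap cells and 22831 in control effector cells, 2.08-fold lower, and its other 3 probe sets gave log2 differences of -1.22, -0.68 and at least 3.24 in the lower direction. Pfkm, Pfkfb4 and Slc2a3 lay close to the 2-fold line: the Slc2a3 difference was -0.96 with signals as deposited, and with a constant added in place of the floor Pfkfb4 gave -0.92 and Pfkm also came just short of the line.

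Other isoforms of these steps differed by less than 2-fold in Rap cells. Aldoa was 1.39-fold lower, so that the difference of Aldoc was 2.58-fold beyond that of Aldoa, and Eno3 was 1.09-fold higher, a gap of 2.54-fold to Eno2. Slc2a1 was 1.43-fold, Hk1 1.62-fold and Pfkp 1.40-fold lower, and Pfkl differed by 1.03-fold. Pfkfb3 was 1.74-fold lower, a gap of only 1.22-fold to Pfkfb4. Hk2, with 5959 in Rap cells and 5834 in control effector cells, differed by 1.02-fold. In the lower part of the chain Tpi1, Gapdh, Pgk1 and Pgam1 were 1.11- to 1.33-fold lower. Taldo1 and Rpia were the pentose phosphate genes furthest from control, 1.53- and 1.51-fold lower, and the lactate carrier Slc16a1 was 1.46-fold lower.

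TOFA and Rap cells differed from each other by less than 2-fold in each of the 29 measured genes by their brightest probe sets. A dimmer Slc2a3 probe set, at the floor in Rap cells, gave at least 1.58 on the log2 scale and stands for the gene when _x_at and _s_at probe sets are left out. No gene was at least 2-fold higher, against 3.25% of 12784 genes compared, and none at least 2-fold lower, against 1.35%. The median was 0.15 over the measured genes and 0.02 over all genes, and 23 genes were above 0. With signals as deposited, Tpi1, Gapdh, Pgk1 and Ldha came out just below 0 instead (-0.04 to -0.02). Beyond the probe set SD of 0.34 were 7 genes higher and 1 lower in TOFA cells, 27.6% of the measured genes against 35.9% of all genes. The largest of these differences were Slc16a1, with 6426 in TOFA cells and 3915 in Rap cells (1.64-fold), Aldoc, with 4170 in TOFA cells and 2601 in Rap cells (1.60-fold), and Pfkfb4, with 262 in TOFA cells and 172 in Rap cells (1.53-fold). Hk3, near the floor on both arrays, was lower in TOFA cells, with 56.4 against 90.1. Doses are not known here, so these values are a description. Both comparisons with control effector cells use the same control array.

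**Figure D3:**
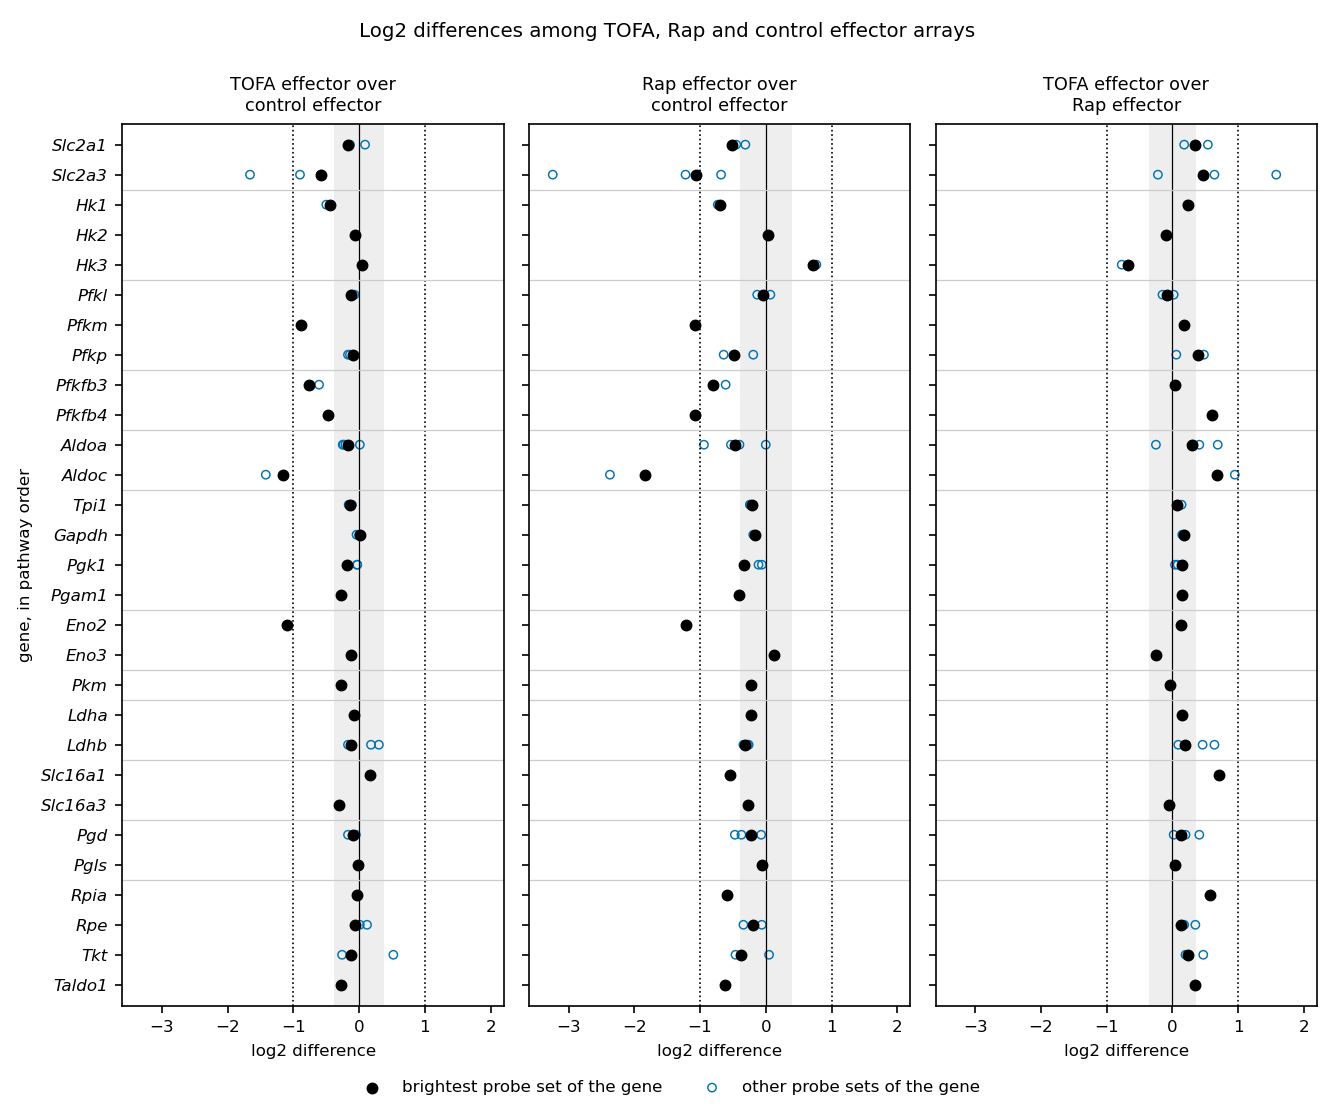
Log2 differences of each measured gene between effector arrays, in pathway order; filled points are the brightest probe set of a gene, open points its other probe sets, the grey band is plus and minus the SD between probe sets of a gene and dotted lines mark 2-fold. Past the lower line lie Aldoc and Eno2 for TOFA over control effector cells, and Aldoc, Eno2, Slc2a3, Pfkm and Pfkfb4 for Rap over control effector cells; the filled points for TOFA over Rap stay between the lines.

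Memory Th1 cells, compared with naive cells, were within 2-fold for most of the module, apart from 2 hexokinases, Tpi1, Taldo1 and Ldhb. Of 28 genes compared, 4 were at least 2-fold higher, against 12.3% of 13015 genes, and 1 was at least 2-fold lower, against 4.13%. The median was 0.14 over these genes and -0.05 over all genes. Beyond the probe set SD of 0.54 were 8 genes higher and 2 lower, 35.7% of the compared genes against 36.1% of all genes. Eno2 was at the floor on both arrays and was not compared.

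Hk3 had a signal of 1040 in memory cells and 116 in naive cells, 8.96-fold higher, and its other probe set gave at least 3.46 beside 3.16 on the log2 scale. Hk2 had 416 in memory cells and 99 in naive cells, 4.2-fold higher, and Taldo1 had 10691 in memory cells and 4392 in naive cells, 2.43-fold higher. Tpi1 was 2.30-fold higher, with 2115 in memory cells and 920 in naive cells, and its other probe sets gave 1.18 and 0.86. Ldhb was 4.09-fold lower, with 258 in memory cells and 1057 in naive cells, and its other 3 probe sets gave -2.68, -2.73 and -3.58. Beside these values, all 10 measured macrophage and monocyte markers were at least 2-fold higher in memory than in naive cells, as were 6 of 7 B cell and 4 of 4 platelet markers, and their part in the hexokinase, Tpi1, Taldo1 and Ldhb differences was not tested. Ldha (10426 in memory cells and 10888 in naive cells), Slc2a1 (1562 and 1984) and the 3 phosphofructokinase genes (1.14- to 1.39-fold lower) stayed within 2-fold.

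Memory cells set against control effector cells had most of the module at lower signal, while 3 genes, Hk3, Taldo1 and Pfkfb4, were above 0. At least 2-fold lower were 21 of the 29 measured genes, against 14.1% of 13240 genes compared, and 1 was at least 2-fold higher, against 14.2%. The median was -1.89 over the measured genes and -0.03 over all genes. Beyond the probe set SD of 0.66 were 24 genes lower and 2 higher, 89.7% of the measured genes against 43.5% of all genes. In this comparison the median of all genes was 0.170 with signals as deposited and -0.032 after quantile normalization, and the deposited signals gave a median of -1.68 for the measured genes.

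Aldoc was 73.1-fold lower, with 127 in memory cells and 9323 in control effector cells, and Eno2 at least 38.4-fold lower. Hk2 was 14.0-fold lower, with 416 in memory cells and 5834 in control effector cells, and Tpi1 13.5-fold lower, with 2115 in memory cells and 28615 in control effector cells. Hk3 was 19.1-fold higher, with 1040 in memory cells and 54.5 in control effector cells, which made the gap between Hk2 and Hk3 268-fold. Taldo1, with 10691 in memory cells and 5399 in control effector cells, was 1.98-fold higher, while Tkt of the same branch was 2.64-fold lower. Both lactate dehydrogenase subunits were lower, 3.43-fold for Ldha and 3.70-fold for Ldhb, whose other 3 probe sets gave -2.14, -2.24 and -3.02 on the log2 scale. The macrophage and monocyte markers were at least 2-fold higher in memory than in control effector cells for 10 of 10 genes and the B cell markers for 7 of 7, and their part in the Hk3 and Taldo1 values was not tested. Eno3 was 2.08-fold lower, but 0.84 lower on the log2 scale with signals as deposited, which is under the 2-fold line.

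**Figure D4:**
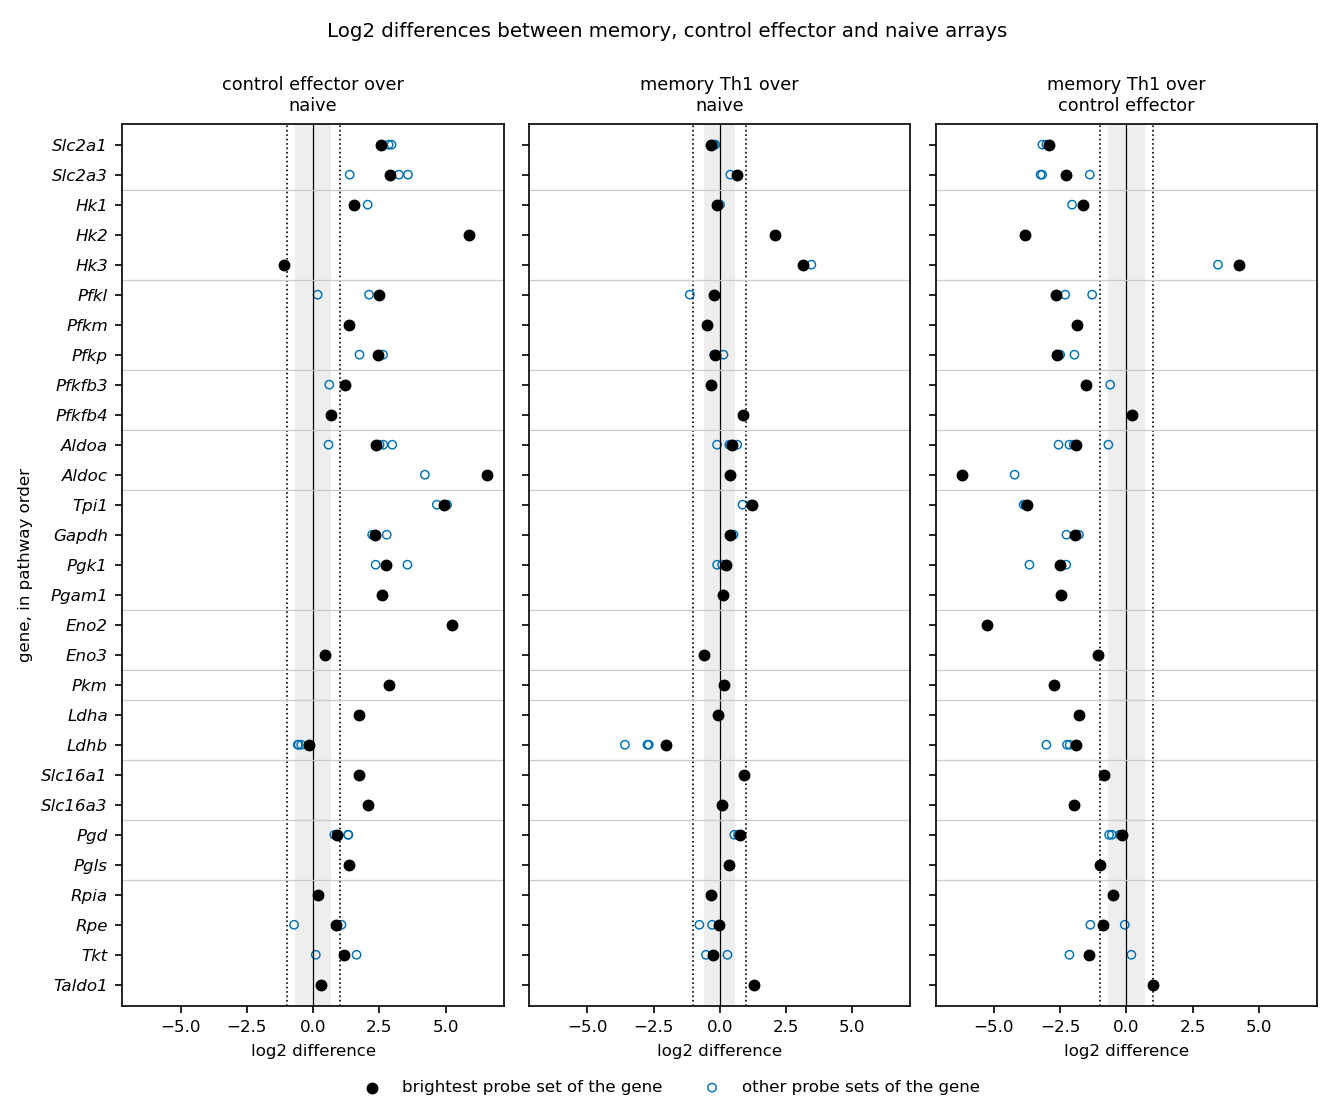
Log2 differences of each measured gene between the memory, control effector and naive arrays, in pathway order; filled points are the brightest probe set of a gene, open points its other probe sets, the grey band is plus and minus the SD between probe sets of a gene and dotted lines mark 2-fold. Most glycolytic genes lie right of the band for control effector over naive cells and left of it for memory over control effector cells, with Hk3 on the opposite side in both.

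Genes around the module were followed with 5 lists, 77 genes of which 73 were on the array. Of 61 compared in control effector over naive cells, 18 passed 2-fold upward and 9 downward, beside shares of 15.9% and 11.4% over all genes, and the median was -0.03. Glycogen and gluconeogenesis genes had 6 of 11 higher and 0 lower, regulators of glycolytic genes 5 of 11 higher and 1 lower, other glucose and monocarboxylate carriers and their partners 3 of 11 higher and 2 lower, other isozymes and side branches 4 of 19 higher and 4 lower, and other pentose phosphate genes 0 of 9 higher and 2 lower. The largest differences were those of Bhlhe40, a transcriptional repressor, with 5248 in control effector cells and 61.8 in naive cells, and Irf4, a transcription factor of activated lymphocytes, with 4264 in control effector cells and 186 in naive cells. Pygl, which breaks down glycogen, had 1637 in control effector cells and 78.3 in naive cells, and Gbe1, which branches glycogen, had 3616 in control effector cells and 258 in naive cells.

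Both glycogen genes were also among the largest differences of the TOFA and Rap arrays, which were compared with the same control array. Gbe1 had 1519 in TOFA cells, 703 in Rap cells and 3616 in control effector cells, which is 2.38-fold lower in TOFA and 5.14-fold lower in Rap cells. Pygl had 515 in TOFA cells, 338 in Rap cells and 1637 in control effector cells, 3.18-fold and 4.85-fold lower. Over the 5 lists, 2 genes passed 2-fold upward and 4 downward of 60 compared for TOFA over control effector cells, where the shares over all genes were 2.47% and 2.14%. The counts were 0 and 5 of 57 for Rap over control effector cells (1.79% and 3.91% of all genes), and 6 and 1 of 57 for TOFA over Rap cells (3.25% and 1.35%). Gapdhs, the sperm form of Gapdh, was at least 2.30-fold higher in TOFA than in control effector cells, Slc2a5, a fructose carrier, was at least 2.14-fold lower in both TOFA and Rap than in control effector cells, and Slc2a6 at least 2.12-fold lower in Rap cells, all of them near the floor. Between TOFA and Rap cells, Pck2, the mitochondrial enzyme that makes phosphoenolpyruvate from oxaloacetate, stood out with 2036 in TOFA cells and 591 in Rap cells, 3.44-fold, and 2.27 on the log2 scale by its other probe set. Slc2a6 was at least 3.89-fold higher and Slc2a4 at least 2.62-fold lower in TOFA than in Rap cells.

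In memory over naive cells 8 genes of these lists passed 2-fold upward and 2 downward of 62 compared, near the 12.3% and 4.13% of all genes. In memory over control effector cells 9 were higher and 18 lower of 59, beside 14.2% and 14.1% of all genes. Pygl stood at 1797 in memory cells and 78.3 in naive cells, 22.9-fold higher, and Bhlhe40 at 1253 in memory cells and 61.8 in naive cells, 20.3-fold higher. Slc16a10, an aromatic amino acid carrier of the lactate carrier family, was 13.0-fold higher in memory than in naive cells and 12.7-fold higher than in control effector cells, although 2 of its other 3 probe sets gave under 1 on the log2 scale. Gpd1, which links glycolysis to glycerol phosphate, was at least 10.6-fold higher in memory cells than in either. Its other probe sets gave 1.72 and 1.87 beside 3.40 on the log2 scale in both comparisons. Gbe1 and Irf4 were 17.4- and 16-fold lower in memory than in control effector cells. The macrophage and B cell marker values given for the memory array stand beside these differences as well, and their part was not tested.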

How the data were processed

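RNA of splenic CD4 T cells was measured on 5 Affymetrix arrays, 1 per group. The deposited values are intensity, a linear signal per probe set, made with GCOS and Affymetrix Expression Console per the submitters' processing notes; the sources used here give neither version nor algorithm. The mean after trimming 2% was 500.003 on every array. After 64 control probe sets were set aside, 45037 probe sets were quantile normalized (Python 3.11.15, numpy 2.4.6, pandas 2.3.3); the 3 Gapdh control probe sets were placed on the same scale by interpolation. Quantile normalization removes any overall shift between arrays, and deposited medians were 63.1 to 99.5. Of these probe sets 34945 had 1 symbol in the platform's 2016 annotation, 932 several and 9160 none, and those with 1 were used. The floor was the 40th percentile and the call a 2-fold difference of the brightest probe set; genes at the floor on both arrays were not compared. The number of arrays, 1 per group, limits the precision.

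The 6 comparisons were control effector over naive, memory over naive, memory over control effector, TOFA and Rap over control effector and TOFA over Rap, with no test. The 6 alternatives were deposited signals without normalization, a floor at percentile 20 or 60, averaging the probe sets of a gene, leaving out _x_at and _s_at probe sets, and a constant added in place of the floor. The genes of the module, the pathway and marker lists and the alternatives were chosen with earlier results of these data known. Signals are given in full for genes past 2-fold in a comparison among effector arrays and for the genes of each step with the largest differences in the others, and up to 4 genes of the pathway lists per comparison are named. Promoter windows came from RefSeq (GRCm38.p6).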

Additional observations from a re-analysis of the deposited data

How the results depend on the processing

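The median difference of the module stayed within the probe set SD of its value under the 6 alternatives in each of the 6 comparisons. In memory over naive cells and among the effector arrays that SD is larger than the median, so the limit says little there. The medians ran from 0.12 to 0.14 for memory over naive cells. They ran from -0.23 to -0.13 for TOFA and -0.39 to -0.28 for Rap over control effector cells, and from 0.12 to 0.17 for TOFA over Rap cells. The single gene at least 2-fold lower in control effector than in naive cells, Hk3, was no longer called (0 genes) with the floor at the 60th percentile, with the mean of all probe sets, without _x_at and _s_at probe sets and with a constant added; in the first and the third of these it was at the floor on both arrays. With the constant added, 3 genes in place of 5 were at least 2-fold lower in Rap than in control effector cells, Pfkm and Pfkfb4 being the others. Without _x_at and _s_at probe sets 1 gene, Slc2a3, was at least 2-fold higher in TOFA than in Rap cells in place of 0, since a dimmer probe set then represents it. The remaining counts stayed within 1.5 times their value. Of 1023 single gene values under the alternatives, 1006 kept their side of the 2-fold line, 12 dropped under it and 5 passed it. Of them 11 changed sign, none larger than 0.20 on the log2 scale in either setting, with signals as deposited or the mean of all probe sets and mainly for TOFA over control effector or Rap cells. No paired analysis was possible because each group has 1 array. No array could be left out for the same reason. Genes near the floor, among them Hk3, Slc16a3 and Eno2 on 2 arrays, are limited by their low signal.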

Other observations

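A pair of genes from the lists of carrier partners, chosen after their values were seen, differed in opposite directions beside the module. Txnip, which encodes a protein known to restrain glucose uptake, had signals of 5952 in TOFA effector, 5171 in Rap effector, 15406 in memory, 3709 in control effector and 22256 in naive cells, 6.0-fold lower in control effector than in naive cells. Bsg, which encodes a membrane partner of the lactate carriers, had 3154 in TOFA effector, 3291 in Rap effector, 1052 in memory, 4998 in control effector and 624 in naive cells, so that the control effector signal was 8.01 times the naive one. Other partners in the list did not follow this pair. Emb, with 4170 in control effector and 9836 in naive cells, was 2.36-fold lower in control effector cells, opposite to Bsg. Arrdc4, with 186 and 163, differed by 1.15-fold. Txnip was 1.60-fold higher in TOFA and 1.39-fold higher in Rap than in control effector cells, and Bsg 1.58-fold and 1.52-fold lower, all under 2-fold.

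Regulators known for acting on glycolytic genes, also chosen after their values were seen, differed between TOFA and Rap cells by less than 2-fold. Hif1a had 23624 in TOFA effector, 16245 in Rap effector, 7628 in memory, 18001 in control effector and 6060 in naive cells. Myc had 4884 in TOFA effector, 8783 in Rap effector, 2329 in memory, 5076 in control effector and 2385 in naive cells. TOFA over Rap came to 1.45-fold higher for Hif1a and 1.80-fold lower for Myc.

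The signals of the module reached the top of the arrays' range. At or above 13762, the signal of the top 1% of probe sets, were 8 of the 29 measured genes in TOFA effector, 6 in Rap effector, 0 in memory, 9 in control effector and 1 in naive cells, and the highest normalized signal of any probe set was 55819.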
